A study of Danio rerio with 30 samples.

Results

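The gene described here is fthl28, a ferritin heavy chain-like gene of the zebrafish. It was chosen by its symbol in the platform annotation, which gave fthl28 alone to 1 probe set. It is thus 1 of the 8793 genes that the annotation names from probe sets with 1 symbol. The symbol also stood among 6 genes of 1 further probe set, which is described apart and never called fthl28. The choice was made with results of these same arrays known, for its change with copper and for its high values in some control arrays. The levels of fthl28 and its differences between groups are therefore a description, and no test is given for them.

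Each of 30 Affymetrix arrays measured RNA of one-year-old adult zebrafish of the AB strain. Each of 10 groups had 3 arrays. The control group received neither agent, 3 groups the organophosphate insecticide chlorpyrifos (CPF) at 0.1, 0.25 or 0.6, 3 groups copper (Cu) at 0.1, 0.25 or 0.6, and 3 groups a mixture of Cu at 0.25 with CPF at 0.1, 0.25 or 0.6. The labels give neither the unit of the concentrations nor the length of exposure. The tissue is labelled as olfactory rosettes in one field and as rosettes with olfactory bulbs and telencephalons in another. The design counts 30 fish, with no word on separate tanks, so p-values cover only the spread among arrays. The titles carry dates, read here as title batches 1, 2 and 3 with 12, 13 and 5 arrays, and the labels do not say what the dates are of. The authors' values are on the log2 scale, so that a difference of 1 is a doubling.

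Ferritin is a hollow protein shell that stores iron in a form that cannot react. Its heavy chains oxidise ferrous iron as it enters. In mammals, ferritin synthesis is set by iron regulatory proteins that bind the mRNA, and transcription of ferritin heavy chain is raised by the oxidant-responsive factor Nrf2. Olfactory sensory neurons lie open to the water, and dissolved copper is a known toxicant of fish olfaction.

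In the RefSeq gene table for the assembly GRCz12tu, fthl28 lies in a run of like genes in the order fthl27, fthl28, fthl30, fthl31 and fthl29, followed by LOC558816. The probe set with 6 symbols names fthl28, fthl27, fthl30, fthl31, LOC558816 and zgc:173594. The fthl30 probe set is of a type whose probes can bind other transcripts, so the signals of these near neighbours may be shared. fth1a, which encodes a classical heavy chain and lies on another chromosome, has a probe set of its own.

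Across the 30 arrays fthl28 ranged from 5.91 to 11.75 on the log2 scale, with an SD of 1.97, and 4 of the 10531 probe sets kept for testing varied more. The widest gap in the ordered values ran from 9.70 to 10.69, with 14 arrays below it and 16 above. The 3 control arrays were at 7.61, 11.16 and 6.98. Control replicate 2 thus stood above the widest gap and the other two control arrays below it, in a group that received neither agent.

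With CPF 0.1 the arrays were at 5.91, 11.22 and 7.10, and with CPF 0.6 they were at 11.62, 6.47 and 7.11. In each of these groups, as in control, 1 array was high and the other two low. With CPF 0.25 the arrays were at 7.64, 7.18 and 8.49, all below the gap and within a narrower range than the control arrays.

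With copper at 0.1 the arrays were at 10.94, 11.34 and 11.03, and with Cu 0.25 at 11.12, 9.44 and 11.10. All 3 arrays were high with Cu 0.1, and 2 were high with Cu 0.25. With Cu 0.6 they were at 6.68, 7.65 and 9.08. Every array of the highest copper concentration was thus below every array of the lower concentrations, and the range of Cu 0.6 overlapped that of control.

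Of the 9 arrays of the mixtures 8 lay above the gap. The arrays were at 10.69, 10.79 and 11.04 with CPF 0.1 + Cu 0.25, and at 11.42, 10.78 and 11.75 with CPF 0.25 + Cu 0.25. With CPF 0.6 + Cu 0.25 they were at 9.70, 11.61 and 11.39, of which the first lay at the lower edge of the gap. Each array of the CPF 0.25 mixture lay above each array of CPF 0.25 alone. In the CPF 0.1 and CPF 0.6 mixtures every array lay below the 1 high array of the matching CPF group and above the rest of that group. These high arrays were at 11.22 and 11.62.

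**Figure D1:**
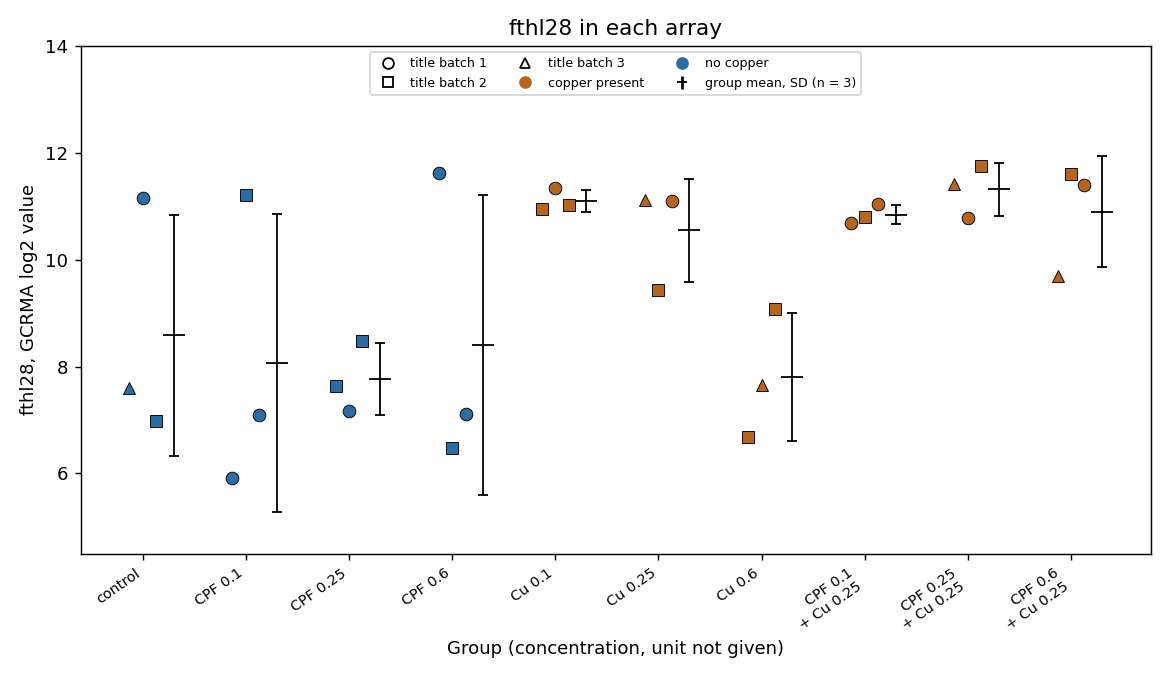
The GCRMA log2 value of fthl28 (vertical axis) is plotted for each array by group (horizontal axis), with the symbol showing the title batch, orange for copper and blue for none, and bars for the group mean and SD (n = 3). The arrays with Cu 0.1 or Cu 0.25 lie between 9.44 and 11.75, those with Cu 0.6 between 6.68 and 9.08, and 1 array each of control, CPF 0.1 and CPF 0.6 lies above 11.

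Ordered by mean, the groups ran from CPF 0.25 + Cu 0.25 at 11.32 ± 0.49 (SD, n = 3) through Cu 0.1 at 11.10 ± 0.21, CPF 0.6 + Cu 0.25 at 10.90 ± 1.04 and CPF 0.1 + Cu 0.25 at 10.84 ± 0.18 to Cu 0.25 at 10.55 ± 0.96. Control followed at 8.58 ± 2.26, then CPF 0.6 at 8.40 ± 2.81, CPF 0.1 at 8.07 ± 2.79, Cu 0.6 at 7.80 ± 1.21 and CPF 0.25 at 7.77 ± 0.66. In all 9 pairs of neighbours in this order the ranges overlapped and the means differed by less than the larger SD. The widest step, 1.97 between Cu 0.25 and control, was also below the SD of control.

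The 12 arrays with Cu at 0.25, alone or in a mixture, ran from 9.44 through a median of 11.07 to 11.75, with an SD of 0.71. The 12 arrays with no copper ran from 5.91 through a median of 7.39 to 11.62, with an SD of 1.99. All 12 arrays with copper lay above the median of those without, and 3 of the 12 arrays without copper lay above the lowest array with it. The fitted difference, averaged over the 4 CPF levels with title batch as a term, was 2.78 ± 0.63 (SE), or 6.88-fold. Fitted on title batch 1 alone the difference was 2.48, and on title batch 2 alone 2.71. Most groups had 1 array in these fits, so no standard error is given. Title batch 3 held 1 array without copper, at 7.61, 3 with Cu at 0.25, from 9.70 to 11.42, and Cu 0.6 replicate 2, at 7.65.

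Split by CPF level, the fitted difference made by copper at 0.25 was 1.97 ± 1.23 with no CPF, 2.77 ± 1.23 at CPF 0.1, 3.69 ± 1.27 at CPF 0.25 and 2.70 ± 1.27 at CPF 0.6. Each had a standard error over 1, and whether they differ from one another was not tested. Adding CPF to Cu 0.25 gave 0.09 ± 1.27, 0.76 ± 1.23 and 0.35 ± 1.23 at CPF 0.1, 0.25 and 0.6, each smaller than its standard error.

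All differences from control shared the same 3 control arrays. They were 2.38 ± 1.27 for Cu 0.1 and −0.72 ± 1.25 for Cu 0.6. For CPF 0.1, 0.25 and 0.6 they were −0.71 ± 1.27, −0.96 ± 1.27 and −0.38 ± 1.27, and for the mixtures 2.06 ± 1.27, 2.73 ± 1.23 and 2.32 ± 1.23. Without control replicate 2, the high control array, Cu 0.1 rose to 3.79, and Cu 0.6 and the CPF groups turned positive at 0.48, 0.84, 0.46 and 1.17. Cu 0.6 was also positive, at 0.53, with only its arrays and the control arrays fitted.

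**Figure D2:**
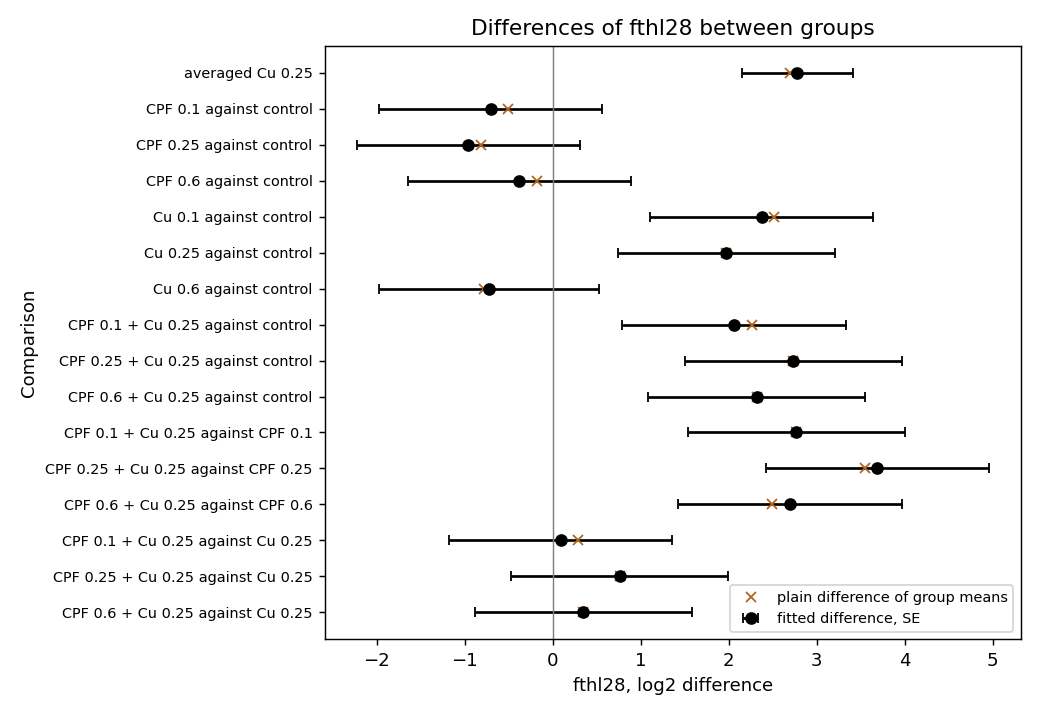
The log2 difference of fthl28 (horizontal axis) is shown for each comparison (vertical axis), with the fitted value and its standard error as points and bars and the plain difference of group means as crosses. The averaged difference for Cu 0.25 is 2.78, Cu 0.6 and the CPF groups lie below 0 with error bars that cross it, and CPF added to Cu 0.25 lies between 0.09 and 0.76.

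Levels in bulk tissue do not tell fewer cells of a type from less RNA per cell, so marker levels were set beside fthl28. The mean log2 level of 14 liver markers ran from 4.09 to 4.69 in the 12 arrays with Cu at 0.25 and from 4.29 to 5.24 in the 12 without copper, and its correlation with fthl28 over the 30 arrays was −0.50 (−0.23 within groups and title batches). Of these markers 6 passed the filter on low values. For averaged copper 2 of the 6 were called lower (limma adjusted p under 0.05), against 2.02% of all genes. The 6 did not move as one, since 3 had a positive difference. Of the 6, 5 (83.3%) had an unadjusted p under 0.05, 2 higher and 3 lower, against 19.9% of all genes. In no array did 5 of the 14 exceed 4, among them fga, fgb, ambp and apobb.1, none of which went above 3.48. rbp4, a retinol carrier, ran from 11.19 to 12.42 and cp, ceruloplasmin, from 8.91 to 10.46, while apoa2 reached 7.57, fabp10a 6.43 and tfa, transferrin, 11.78 from a lowest value of 3.91. The averaged copper difference of fthl28 was 2.55 ± 0.81 when 4 arrays with many liver or pancreas transcripts were left out. They were CPF 0.25 replicates 1 and 3, Cu 0.25 replicate 3 and CPF 0.6 replicate 2. These had the highest pancreas marker means of the 30 arrays, from 3.80 to 4.96. Control replicate 1, with the highest liver marker mean at 5.24, was kept in this fit. The correlation with fthl28 was −0.26 for 15 pancreas markers (−0.02 within) and −0.43 for 7 neutrophil markers (−0.53 within groups and title batches).

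Erythrocytes carry much of the body's iron in haemoglobin. Their 10 markers had a mean from 5.15 to 5.62 with copper and from 4.91 to 5.89 without, and a correlation with fthl28 of −0.30 (−0.29 within). In these ranges, with copper means the 12 arrays with Cu at 0.25, while the correlations are over all 30 arrays. With Cu 0.6 the erythrocyte mean ran from 5.16 to 6.34. The 11 macrophage and microglia markers had a mean from 6.88 to 7.50 with copper and from 6.53 to 7.09 without, with a correlation of 0.11 that was −0.33 within groups and title batches. Of the 10 that passed the filter, limma called 3 higher for averaged copper, against 2.98% of all genes. The mean of the 11 ran from 7.01 to 7.34 with Cu 0.6 and from 6.80 to 6.87 in control. In that comparison limma called 0 of the 10, against 1.8% of all genes. Of the 10, 4 (40%), all higher, had an unadjusted p under 0.05, against 16.9% of all genes. The 19 epithelium and skin markers had a correlation of −0.12, or 0.10 within. For averaged copper 1 of the 18 that passed the filter was called higher and 1 lower, against 2.98% and 2.02% of all genes. Of the 7 erythrocyte, 7 pancreas and 6 neutrophil markers that passed, 0 were called, against 4.99% of all genes. The 4 genes listed as olfactory neuron markers had a mean from 6.53 to 7.26 with copper and from 7.11 to 7.99 without. Its correlation with fthl28 was −0.26, or 0.07 within. All 3 that passed the filter fell with averaged copper and with Cu 0.6 against control (limma adjusted p under the threshold of 0.05), with median differences of −1.26 and −2.48, against 4.99% and 1.8% of all genes called. The mean of the 4 ran from 5.99 to 6.09 with Cu 0.6 and from 7.53 to 7.99 in control. Of these markers, gng13b ran from 9.64 to 11.41 and ompb, the olfactory marker protein, from 3.56 to 6.69. gngt2b, which did not pass the filter, stayed between 2.16 and 2.55 and served as no marker here. It lowers the mean of the 4, which follows the other 3. The difference between the 3′ and 5′ probe sets of 2 control transcripts, a sign of RNA quality, ran from 1.65 to 1.98 with copper and from 1.59 to 2.02 without, with a correlation of −0.12. Their part in the levels of fthl28 was not tested.

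The other ferritin probe sets split between those of the gene run and fth1a. The probe set shared by 6 genes correlated with fthl28 at 0.98 over the 30 arrays, that of fthl30 at 0.96 and that of fthl27 at 0.94. fthl30 ran from 10.85 to 13.88 and fthl27 from 11.75 to 13.36. fth1a stayed between 13.14 and 13.93, with a correlation of −0.25. The 3 arrays without copper that were high in fthl28 were also high in fthl30, at 13.57 in control replicate 2, 13.38 in CPF 0.1 replicate 2 and 13.88 in CPF 0.6 replicate 1. fthl27 was at 13.26, 13.19 and 13.37 in these arrays, against 11.81 and 11.95 in the other two control arrays. With Cu 0.6 fthl30 was at 10.85, 11.45 and 12.30, and fthl27 at 11.75, 11.95 and 12.45. In both, as in fthl28, replicate 3 was the highest of that group.

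Of these probe sets, fthl30 was 1.04 ± 0.30 higher with Cu at 0.25 averaged over CPF levels (limma adjusted p = 0.0535). fthl27 was 0.68 ± 0.20 higher (limma adjusted p = 0.0526). In both, 12 of 12 arrays with copper lay above the median of the arrays without, title batch terms removed. All counts of arrays for averaged copper are against this median, so single arrays without copper can lie beyond it. Counts of arrays against control are of those beyond every control array. Neither fthl30 nor fthl27 passed the threshold of 0.05, against 2.98% of all genes that did so as higher and 2.02% as lower. Both passed when any one of control replicate 2, CPF 0.1 replicate 2 or CPF 0.6 replicate 1 was omitted. They also passed without CPF 0.6 + Cu 0.25 replicate 1, and fthl27 did without Cu 0.25 replicate 2. These are the arrays without copper that were high in fthl28, and the lowest with Cu at 0.25. They run against the difference, so passing without them adds no support. Both probe sets follow fthl28, which was chosen for its change with copper, so their p-values are no separate test. fth1a was at 0.01 ± 0.05 (limma adjusted p = 0.923, higher in 9 of 12 arrays). With Cu 0.6 against control fthl30 was at −0.98 ± 0.60 and fthl27 at −0.28 ± 0.39 (limma adjusted p = 0.460 and 0.791).

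**Figure D3:**
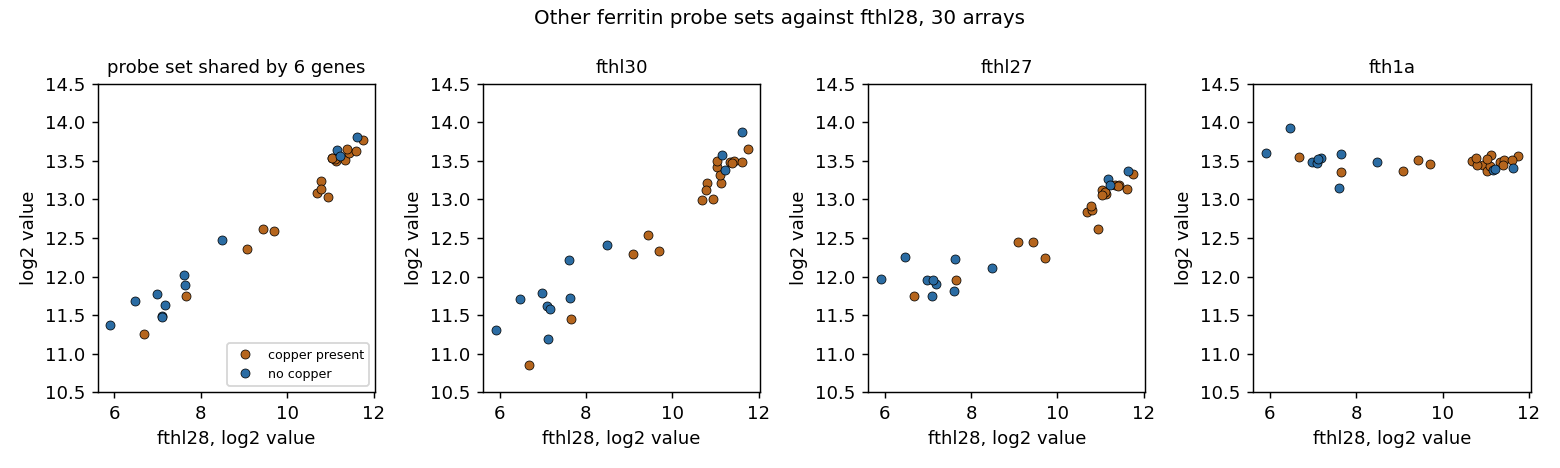
Each panel plots the log2 value of another ferritin probe set (vertical axis) against that of fthl28 (horizontal axis) in 30 arrays, orange with copper and blue without. The probe set shared by 6 genes, fthl30 and fthl27 follow fthl28 in arrays of both colours, while fth1a stays between 13.14 and 13.93.

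A list of iron-handling genes was followed: ferritin, iron transport and recycling, regulation, haem synthesis and breakdown, and iron-sulfur assembly. With fthl28 left out, 40 were on the array and 32 passed the filter, among them fthl27, fthl30 and fth1a. With Cu at 0.25 averaged over CPF levels limma called 0 of the 32, against 322 of all 6448 genes (4.99%). An unadjusted p under 0.05 was found for 7 of the 32 (21.9%), against 19.9% of all genes. Of these 5 were higher, fthl27 and fthl30 included. The median difference of the 32 was 0.10, against 0.03 over all genes. Of the 29 that are not ferritin genes 5 (17.2%) had an unadjusted p under 0.05, of which 3 were higher, and their median was also 0.10. tfa was at −1.32 ± 0.51 (limma adjusted p = 0.156, lower in 11 of 12 arrays), slc40a1, which exports iron from cells, at 0.26 ± 0.20 (adjusted p = 0.505), and aco1, iron regulatory protein 1, at −0.11 ± 0.11 (adjusted p = 0.635). The highest tfa value of the 30 arrays, 11.78, was in CPF 0.6 replicate 2, an array with many liver or pancreas transcripts. The SD of tfa in that group was 4.04 (n = 3).

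With Cu 0.6 against control 1 of the 32 genes passed, against 1.8% of all genes (0.837% higher and 0.962% lower). This was blvrb, biliverdin reductase B of haem breakdown, which fell by −0.72 ± 0.17 in 3 of 3 arrays (limma adjusted p = 0.0354, from 0.0198 to 0.461 over the alternatives). The call ended without control replicate 1 or 2 or Cu 0.6 replicate 1 or 2. aco1 was 0.66 ± 0.22 higher and did not pass (limma adjusted p = 0.144). The mean log2 level of aco1 was 6.17 ± 0.42 (SD, n = 3) in control and 6.81 ± 0.47 with Cu 0.6.

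In the other comparisons with control, limma called 0 of the 32 iron-handling genes. The background was 0% of all genes for Cu 0.1, 0.419% for Cu 0.25, 0% for CPF 0.1 and CPF 0.25 and 0.0155% for CPF 0.6. It was 0.171%, 0.202% and 0.124% for the mixtures with CPF 0.1, 0.25 and 0.6. The number with an unadjusted p under 0.05 was 0 and 1 for Cu 0.1 and Cu 0.25. It was 5, 0 and 4 for CPF alone, and 3, 4 and 4 for the mixtures. As a share it exceeded that of all genes for CPF 0.1 (15.6% against 6.96%) and CPF 0.6 (12.5% against 8.75%). It also did so for the CPF 0.6 mixture (12.5% against 9.13%). It was lower for Cu 0.1 (0% against 10.1%), CPF 0.25 (0% against 5.65%) and Cu 0.25 (3.12%, against 678 of 6448 genes). It was also lower for the mixtures with CPF 0.1 (9.38% against 13.2%) and CPF 0.25 (12.5% against 15.4%). For the interaction of CPF and copper limma's F-test also called 0 of the 32, against 0% of all genes. An unadjusted p under 0.05 was found for 1 of the 32, against 232 of all 6448 genes.

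The genes whose pattern was most like that of fthl28 were named by Pearson correlation over the 30 arrays, which share tissue, processing and title batches. After fthl30 and fthl27 came zfand2a at 0.88, whose mammalian form binds the proteasome under arsenite stress, and sqstm1 at 0.86, the autophagy receptor p62. Then came prxl2b, a peroxiredoxin-like protein, at 0.85, and abhd4, a lipid hydrolase, at 0.83. The inducible chaperone hsp70.3 was at 0.83 and desi1b, a SUMO-removing peptidase, at 0.82. With group means and title batches removed the correlations of these 6 genes ran from 0.69 for desi1b to 0.89 for zfand2a. On either side of the gap in fthl28 they were lower: for zfand2a 0.64 in the 16 arrays above and 0.43 in the 14 below, and for prxl2b 0.26 above and 0.62 below.

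The same arrays stood out. hsp70.3, whose probe set is also of the type that can bind other transcripts, was at 5.06, 7.62 and 4.62 in the control arrays. With CPF 0.1 its highest array was at 7.44 and the next at 5.40, and with CPF 0.6 the highest was at 7.51 and the lowest at 5.02. In each of these groups the array high in fthl28 was also the highest in hsp70.3. With Cu 0.6 hsp70.3 was at 5.27, 6.22 and 7.52, so that Cu 0.6 replicate 3 was near the high control array in hsp70.3, at 7.52 against 7.62, but not in fthl28, at 9.08 against 11.16. sqstm1 was at 9.39, 10.11 and 9.41 in control and at 9.27, 8.87 and 10.21 with Cu 0.6. slc40a1, the iron exporter ferroportin, was at 7.91, 9.41 and 8.21 in control and at 7.87, 7.57 and 7.89 with Cu 0.6. For both genes control replicate 2 was the highest control array.

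For the genes chosen for their likeness the averaged copper difference is a description as well. It was 0.66 ± 0.15 for zfand2a, 0.68 ± 0.16 for prxl2b, 0.41 ± 0.10 for abhd4 and 0.81 ± 0.16 for desi1b. All 4 were smaller on the log2 scale than the 2.78 of fthl28. With Cu 0.6 against control zfand2a was at −0.52 ± 0.30, sqstm1 at −0.19 ± 0.31 and prxl2b at −0.13 ± 0.31, while abhd4 was at 0.07 ± 0.21, desi1b at 0.23 ± 0.32 and hsp70.3 at 0.66 ± 0.87. These genes thus lay on both sides of 0.

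**Figure D4:**
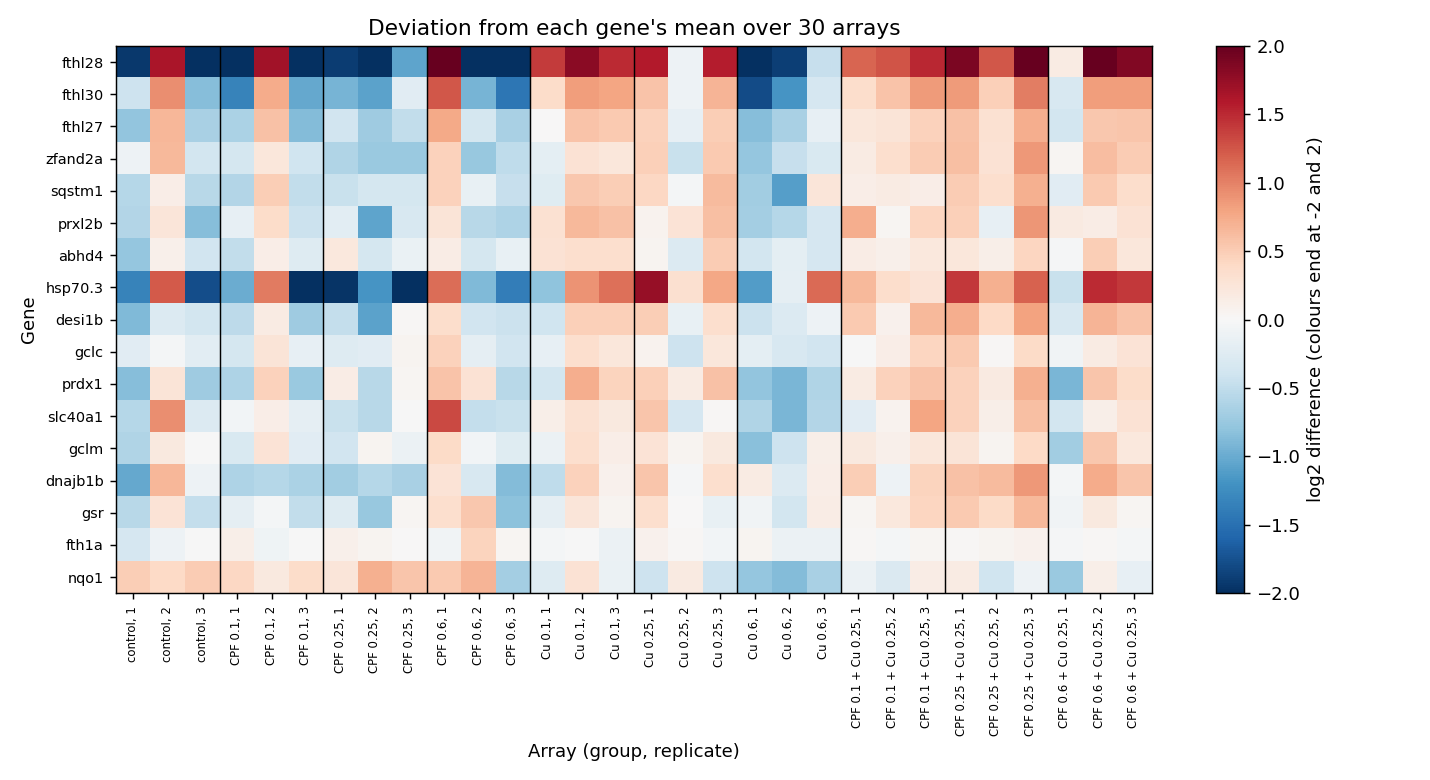
For 17 genes (vertical axis) the colour gives the log2 deviation of each array (horizontal axis, by group and replicate) from the gene's mean over 30 arrays, with colours ending at −2 and 2. The array of control, CPF 0.1 and CPF 0.6 that is high in fthl28 is also high in hsp70.3 and sqstm1, while fth1a and nqo1 do not follow.

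Lists of related genes were compared with fthl28 by the same measure. Of 6448 genes 35, or 0.543%, had a correlation above 0.5, a count that includes fthl28 itself. Among 23 redox defence genes 5 did: sqstm1, gclc at 0.79 and gclm at 0.73, the subunits of the enzyme that starts glutathione synthesis, the peroxide-reducing enzyme prdx1 at 0.76, and gsr, glutathione reductase, at 0.63. Among the 32 iron-handling genes 5 did: fthl30, fthl27, slc40a1 at 0.73, the mitochondrial membrane protein tspo at 0.59 and the haem-binding protein hebp2 at 0.56. Both heat shock genes above 0.5, of 18 measured, were hsp70.3 and its cochaperone dnajb1b at 0.72, and the 1 copper and zinc handling gene above 0.5, of 13, was slc40a1, which stands in that list too. The redox list had a median correlation of 0.13 and the iron list one of 0.05, against −0.02 over all genes. The genes named here for their correlation were singled out after their values were seen.

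In the 16 arrays above the gap the correlation was 0.63 for gclc, 0.78 for gclm, 0.55 for prdx1 and 0.53 for slc40a1. In the 14 arrays below it was 0.10, 0.09, 0.08 and −0.04. For these 4 genes the correlation was thus higher among the arrays above the gap than among those below, a difference that was not tested. The lowest correlations among single probe sets belonged to 1 of the 2 probe sets of si:ch211-157c3.4 (−0.58, against −0.47 for its brighter one), mych, a Myc family gene (−0.56), prr15la (−0.56) and nsun2, an RNA methyltransferase (−0.54).

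Of 23 redox defence genes 3 passed for averaged copper, against 4.99% of all genes. An unadjusted p under 0.05 was found for 12 (52.2%), against 19.9% of all genes. sqstm1 rose by 0.60 ± 0.16 in 12 of 12 arrays. It was also chosen for its likeness to fthl28, so this rise, its call and its place in the count of 3 are a description. prdx4, a peroxiredoxin of the endoplasmic reticulum, rose by 0.31 ± 0.07 (limma adjusted p = 0.0152, 12 of 12 arrays). nqo1, a quinone reductase and known Nrf2 target, fell by −0.51 ± 0.14 (adjusted p = 0.0363, 12 of 12 arrays). With each array omitted in turn, these calls survived 15, 24 and 9 times of 24, and all 3 ended when the 4 arrays with many liver or pancreas transcripts were omitted. The differences of prdx1, gsr, gclc and gclm, 0.57, 0.44, 0.25 and 0.29, missed the threshold (limma adjusted p = 0.0900, 0.0773, 0.215 and 0.232). These genes also follow fthl28, as given above, so their p-values are no separate test.

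Of 18 heat shock genes 2 rose, against 2.98% of all genes called as higher. dnajb1b rose by 0.92 ± 0.15 in 12 of 12 arrays (limma adjusted p = 0.000615). Its correlation with fthl28, which was chosen for its change with copper, was 0.72, so this p-value is no separate test. hsp70.3 rose by 1.79 ± 0.44, also in 12 of 12 arrays. It was chosen for its likeness to fthl28 too, so its rise, its call and its place in the count of 2 are a description. The call of dnajb1b held whichever array was omitted, while omitting control replicate 1 ended the call of hsp70.3. Omitting title batch 3, or the 4 arrays with many liver or pancreas transcripts, also ended the call of hsp70.3 but not that of dnajb1b. Of 13 copper and zinc handling genes limma called 0, against 4.99% of all genes. An unadjusted p under 0.05 was found for 4 of the 13 (30.8%), against 19.9% of all genes. Most of the 13 are zinc transporters, with slc31a1 and cox17 for copper. The copper genes atp7a, atp7b, ccs, atox1 and commd1 had no probe set of their own, and the list held no metallothionein. These counts thus say little of copper handling. With Cu 0.6 against control limma called 2 of the 23 redox defence genes, 1 of the 13 copper and zinc handling genes and 0 of the 18 heat shock genes, against 1.8% of all genes. Of the heat shock genes 1 (5.56%) had an unadjusted p under 0.05, against 16.9% of all genes. In these arrays, as given above, the olfactory neuron markers were also lower than in control and the macrophage marker mean higher. The part of these markers in the changes was not tested. nqo1 fell by −1.24 ± 0.27 and nfe2l2a, which encodes Nrf2, by −1.07 ± 0.25, in 3 of 3 arrays each (limma adjusted p = 0.0205 and 0.0259). slc30a7, a zinc transporter, rose by 0.50 ± 0.11 (adjusted p = 0.0205). Omitting each of the 6 arrays in turn kept these calls 1, 2 and 0 times, and omitting title batch 3 ended all 3.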

How the data were processed

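The deposited table held log2 expression values of 15617 probe sets in 30 arrays, to which the authors applied GCRMA per the submitters' processing notes, its version not being stated there. The log2 scale was read from the spread of values, 1.09 to 15.73 once 115 control probe sets were left out. The scanner signals were not used here, so other background corrections could not be tried and detection calls are unknown. Of 15502 probe sets, 10795 had 1 symbol and 135 several, from which no gene was named. Symbols were updated through the gene identifier, which changed 1.

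Probe sets above 4 in at least 3 arrays were kept, 10531 in all, for 6448 genes. All 30 arrays entered 1 linear model per probe set (limma 3.58.1, R 4.3.3), made of group means plus title batch and moderated with eBayes. The Benjamini-Hochberg adjustment ran over the 10531, with a threshold of 0.05, and for a gene with several probe sets the one with the highest mean was used. Replicate numbers follow accession order and pair no arrays. Alternatives changed the title batch term, the filter, the scaling and the arrays used. Array correlations ran from 0.962 to 0.993, with no 2 arrays identical.

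The named genes were fthl28, the measured ferritin genes, up to 6 genes of each list past the threshold for averaged copper or Cu 0.6, 10 genes fixed by name (6 of them, hmox1a, mt2, tfr1a, tfr1b, hamp and ireb2, not among those kept), and the 8 highest and 4 lowest correlations with fthl28. fthl28, the lists and this rule were chosen with earlier results of these data known. Fits were tested on simulated data.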

Additional observations from a re-analysis of the deposited data

How the results depend on the processing

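The averaged copper difference of fthl28 was between 2.48 and 2.79 under the other settings and between 2.50 and 3.26 in the 24 fits that left out 1 array. Against control, leaving out an array gave 1.30 to 3.79 for Cu 0.1, 1.021 to 3.30 for Cu 0.25, and −1.76 to 0.48 for Cu 0.6. It gave −2.69 (without CPF 0.1 replicate 2) to 0.84 for CPF 0.1, −2.04 to 0.46 for CPF 0.25 and −1.95 to 1.17 for CPF 0.6. For the mixtures it gave 1.06 to 3.61, 1.78 to 4.07 and 1.37 to 3.65. CPF 0.6 was at 0.76 when 4 arrays with many liver or pancreas transcripts were omitted, a setting chosen after seeing the data, and Cu 0.6 at 0.53 with the compared groups alone. For averaged copper the count of iron-handling genes was 1 with no title batch term and with a random block, 2 with the filter at 6, 1 within title batch 2, and 0 to 3 with an array left out (3 without CPF 0.6 replicate 3). fthl30 passed in the first 3 of these settings and fthl27 with the filter at 6. Leaving out fthl27 and fthl30, also chosen after seeing the data, was run on the reported fit only, where neither had passed in any comparison. For Cu 0.6 the count was 0 with title batch 3 omitted, with only the compared groups and without the 4 arrays, and 0 to 1 with an array left out, as for CPF 0.6. The counts of redox and heat shock genes were each 1 without title batch 3 or the 4 arrays and 0 within title batch 1 or 2, which hold fewer arrays. They were 1 to 6 and 1 to 4 with an array left out, and 0 to 2 for copper and zinc genes. Otherwise the cause of these moves was not tested. No paired analysis was possible because the labels number no replicates. The number of arrays, 3 a group, limits the precision.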
